A study of Mus musculus with 7 samples.

Results

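The comparison is between 2 populations of single cells from mammary tumours of PyMT mice, 69 wells labelled as solid tumour and Ecadherin negative and 71 wells labelled as solid tumour and Ecadherin positive, here called Ecad-negative and Ecad-positive cells. These 140 wells were chosen from 312 wells of 4 CEL-seq libraries by their labels and by holding at least 500 transcripts, and the whole series has 7 libraries. PyMT mice carry the polyoma middle T oncogene as a transgene and develop mammary tumours. Both populations come from such tumours, and the promoter of the transgene, the strain and age of the mice and the number of mice are not given in the sources used here. Single cells were sorted by FACS into Trizol, and the labels give their E-cadherin status. In CEL-seq, barcodes mark the cell and the molecule that a read came from, and reads cover the 3′ ends of transcripts.

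Each library held 24 sorted wells of each population, and 19, 22, 14 and 14 Ecad-negative wells and 18, 19, 16 and 18 Ecad-positive wells reached 500 transcripts in libraries 1 to 4. Each population had its own cell barcodes, the same ones in all 4 libraries, so population and barcode set cannot be told apart. Transcripts were summed per population and library. The Ecad-negative sums held 37246, 109892, 18207 and 17189 transcripts and the Ecad-positive sums 59608, 71894, 30163 and 27416. The median well held 1603 transcripts of 970 genes in Ecad-negative cells and 2064 transcripts of 1115 genes in Ecad-positive cells. A single Ecad-negative well of library 2 held 61227 transcripts of 7466 genes, 55.7% of its sum, while the next largest Ecad-negative well held 4974. The library is the replicate (n = 4). Whether libraries hold separate animals is not stated in the labels, and the p-values then reflect only how libraries vary, which may be technical. In sums over wells, fewer cells of a type and less RNA per cell cannot be told apart.

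E-cadherin, encoded by Cdh1, joins neighbouring epithelial cells at adherens junctions. In an epithelial-to-mesenchymal transition (EMT), repressors of the Snail, Zeb and Twist families lower E-cadherin, and cells gain vimentin, contractile proteins and extracellular matrix. The mammary epithelium has luminal cells, which make milk and other secreted proteins, and basal or myoepithelial cells, which hold smooth muscle actin and rest on a basement membrane of type IV collagen, laminin, nidogen and perlecan. Endothelial cells, fibroblasts and pericytes of a tumour also make such matrix and hold little or no E-cadherin.

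Of 1128 genes tested with edgeR, 53 (4.7%) had a Benjamini-Hochberg adjusted p under 0.05, here termed called. Of these, 37 (3.28% of genes tested) were higher and 16 (1.42%) were lower in Ecad-negative cells. The difference went the same way in 4 of 4 libraries for 36 of the 37 genes higher and for 14 of the 16 genes lower. For 42 of the 53 the sums of the groups did not overlap, as was so for 103 (9.13%) of all genes tested. Without library 1 the count was 28. With limma on means over wells it was 76, of which 31 were higher and 45 lower, and with DESeq2 it was 29, of which 26 were higher and 3 lower. Most called genes were of low or moderate level, as were most genes tested, and the share called was smallest in the lowest band. Of the 53, 24 averaged under 5 transcripts per 10000 over the 8 sums (2.78% of the 862 genes tested at that level), 21 averaged 5 to 20 (11.3% of 186) and 8 averaged over 20 (of 80). In the lowest band 21 were higher and 3 lower in Ecad-negative cells, in the middle band 13 and 8, and in the highest band 3 and 5. The median log2 fold change of all genes tested was −0.02. An unadjusted p under 0.05, in either direction, was found for 177 of the 1128 genes tested, the background for such counts below.

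**Figure D1:**
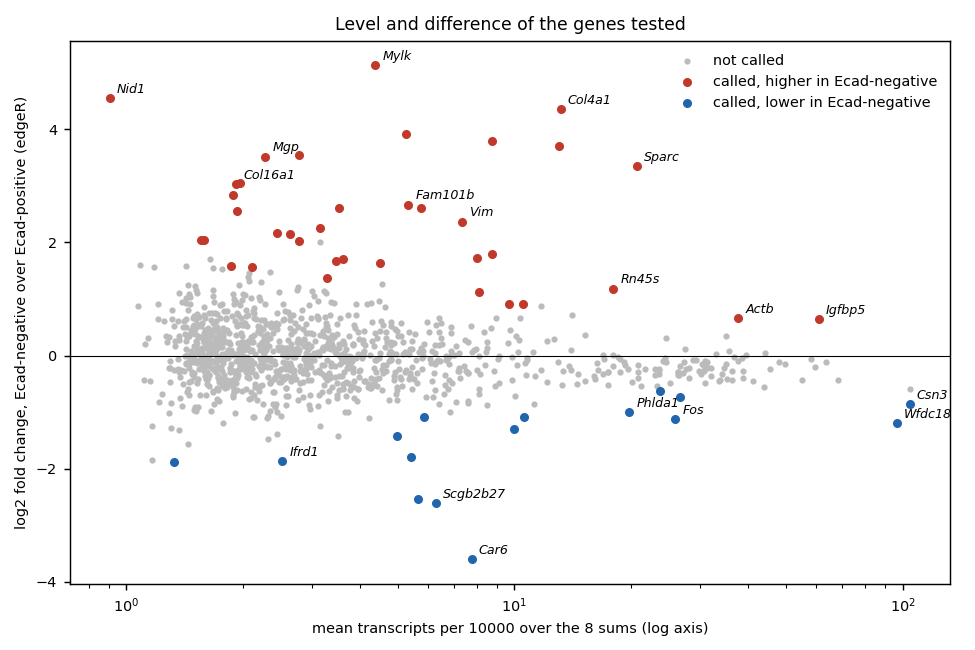
Each point is 1 of the 1128 genes tested, placed by its mean transcripts per 10000 over the 8 sums (log axis) and by its log2 fold change, Ecad-negative over Ecad-positive. The 37 genes called higher (red) lie mostly at the left and middle of the plot, and 5 of the 16 genes called lower (blue) average over 20 per 10000.

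Cdh1 itself, whose protein defined the sort, had 5.11, 6.39, 2.2 and 2.92 transcripts per 10000 in Ecad-negative libraries 1 to 4, against 3.36, 3.62, 10.6 and 5.85 in Ecad-positive cells. The sums overlapped and Ecad-negative cells were higher in 2 of 4 libraries. Cdh1 was not called (log2 fold change −0.09, SE 0.40, edgeR adjusted p = 0.942). At least 1 Cdh1 transcript was found in 31 of 69 Ecad-negative wells and 43 of 71 Ecad-positive wells, 15.7% and 24.7% after each well was thinned to 500 transcripts. The single large well gave 54.1% of all Cdh1 transcripts in Ecad-negative cells, and without it the library 2 sum of Ecad-negative cells stood at 3.5 per 10000. The log2 fold change was then −0.4, still not called (adjusted p = 0.603, over all alternatives 0.159 to 0.999). A difference in Cdh1 transcript was therefore not detected, which does not show equal levels at this depth.

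Vim, encoding the intermediate filament vimentin, had 7.53, 7.58, 12.1 and 22.8 transcripts per 10000 in Ecad-negative libraries 1 to 4, against 1.68, 2.09, 2.99 and 1.83 in Ecad-positive cells. Every Ecad-negative sum was above every Ecad-positive sum (log2 fold change 2.36, SE 0.32, edgeR adjusted p = 6.16e-05). In a fit without the 37 Ecad-negative wells that exceeded every Ecad-positive well in endothelial, basal or leukocyte markers (here termed the 37 wells) the log2 fold change was 0.6 and was not called (adjusted p = 0.937, over all alternatives 8.9e-09 to 0.937). Transcripts of Vim and of Epcam, an epithelial adhesion molecule, were both found in 28 of 69 Ecad-negative wells and in 23 of 71 Ecad-positive wells. Vim was found in 44 Ecad-negative and 23 Ecad-positive wells and Epcam in 42 and 62. Such joint counts depend on how common each gene was. Epcam had 7.0, 11.8, 5.5 and 5.25 transcripts per 10000 in Ecad-negative libraries 1 to 4, against 11.8, 12.7, 20.3 and 15.7 in Ecad-positive cells. It was lower in Ecad-negative cells in 4 of 4 libraries, though the groups overlapped through library 2 of Ecad-negative cells, and it was not called (log2 fold change −0.85, SE 0.27, edgeR adjusted p = 0.087). Without the large well, which held 56.7% of all Epcam transcripts of Ecad-negative cells, the library 2 sum was 6.18 and Epcam was called (log2 fold change −1.15, SE 0.23, edgeR adjusted p = 0.000953, over all alternatives 0.000253 to 0.476). The 300 bases from 250 before to 50 after the Epcam start (RefSeq, GRCm38.p6, chr17:87635729-87636028, plus strand) are shown because the call of this epithelial gene turned on 1 well. Capitals mark E-boxes, the 6-base sites (CAGGTG, or CACCTG on the other strand) that Snail and Zeb proteins are known to bind.
Epcam: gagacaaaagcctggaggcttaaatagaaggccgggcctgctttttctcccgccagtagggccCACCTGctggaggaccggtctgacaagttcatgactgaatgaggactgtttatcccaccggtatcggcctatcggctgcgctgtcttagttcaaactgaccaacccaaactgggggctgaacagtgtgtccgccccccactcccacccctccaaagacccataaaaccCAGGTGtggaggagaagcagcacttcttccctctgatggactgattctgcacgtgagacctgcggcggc
The E-boxes start at −187 and −19 from the transcription start. Of all 32851 promoter windows of this table, 20.2% hold at least 1 such E-box on either strand. The same holds for 16.3% of the 900 tested genes that have a window, 6 of 27 genes called higher with a window (22.2%) and 4 of 12 genes called lower (33.3%), a description with no test.

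The EMT repressors themselves were too low for the test, with 0 of 15 listed members tested by edgeR, so no call and no unadjusted p exists for them. Snai2 had 4, 6, 0 and 2 transcripts in Ecad-negative libraries 1 to 4 and 0 in Ecad-positive cells, and Zeb1 had 2, 6, 1 and 2 in Ecad-negative cells and 0 in Ecad-positive cells. Their relatives did not share this pattern. Snai1 had 3 transcripts in Ecad-negative cells and 4 in Ecad-positive cells, Twist1 1 and 1, and Zeb2 2 and 1. Sox4, which is linked to EMT in mammary cells, had 32 transcripts in 22 Ecad-negative wells and 17 in 15 Ecad-positive wells. Foxc1 had 19 transcripts in Ecad-negative cells and 30 in Ecad-positive cells. Of 12 tested genes of epithelial junctions, 0 were called (edgeR, with 1 higher and 1 lower at an unadjusted p under 0.05, 0 by DESeq2, and 1 lower by limma), and their median log2 fold change was 0.00. The keratins Krt8 and Krt18 were the tested members of the keratin list, and 0 of 2 were called (median −0.78, edgeR, both lower at an unadjusted p under 0.05, 0 by DESeq2 and by limma).

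Most tested genes of the basement membrane were higher in Ecad-negative cells. Of 9 tested members 8 were higher in Ecad-negative cells and 0 lower, where 3.28% of all genes tested were called higher, and their median log2 fold change was 2.84. The list took 0.961, 0.875, 1.02 and 1.56% of transcripts in Ecad-negative libraries 1 to 4, against 0.131, 0.170, 0.189 and 0.106% in Ecad-positive cells, and the groups did not overlap. Without the large well 8 of 9 were again higher (5.62% of all genes tested), and without the 37 wells 4 of the 4 still tested (1.37% of all). Of 24 measured members, the other 15 were too low to test, and a low gene that is high in 1 group passes the filter through that group.

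Col4a1 (chr8:11198423-11312889) and Col4a2 (chr8:11312805-11449287) encode the chains of the common type IV collagen, the network-forming collagen of basement membranes. Col4a1 had 20.2, 20.6, 27 and 32.7 transcripts per 10000 in Ecad-negative libraries 1 to 4, against 1.18, 0.976, 2.66 and 0 in Ecad-positive cells. Every Ecad-negative sum was far above every Ecad-positive sum (log2 fold change 4.35, SE 0.35, edgeR adjusted p = 9.52e-08). Col4a2 had 8.07, 6.66, 11 and 14 transcripts per 10000 in Ecad-negative libraries 1 to 4, against 0.336, 0.697, 0.997 and 0.366 in Ecad-positive cells. For Col4a2 every Ecad-negative sum exceeded every Ecad-positive sum (log2 fold change 3.91, SE 0.39, edgeR adjusted p = 1.51e-06). Both were found in 35 of 69 Ecad-negative wells and in 4 of 71 Ecad-positive wells. Col4a1 was found in 50 Ecad-negative and 14 Ecad-positive wells and Col4a2 in 40 and 10. The joint counts depend on how common each gene was. The genes lie head to head on opposite strands. Their promoter windows (RefSeq, GRCm38.p6, Col4a1 chr8:11312777-11313076, minus strand, and Col4a2 chr8:11312555-11312854, plus strand) are shown because this pair moved together. Capitals mark the 78 bases that both windows hold, each read on its own strand.
Col4a1: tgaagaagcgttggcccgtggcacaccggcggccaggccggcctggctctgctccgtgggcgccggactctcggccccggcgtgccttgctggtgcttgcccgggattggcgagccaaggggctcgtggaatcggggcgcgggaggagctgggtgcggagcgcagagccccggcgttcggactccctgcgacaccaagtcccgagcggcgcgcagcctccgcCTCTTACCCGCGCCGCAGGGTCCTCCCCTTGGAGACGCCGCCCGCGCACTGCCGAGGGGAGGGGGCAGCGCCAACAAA
Col4a2: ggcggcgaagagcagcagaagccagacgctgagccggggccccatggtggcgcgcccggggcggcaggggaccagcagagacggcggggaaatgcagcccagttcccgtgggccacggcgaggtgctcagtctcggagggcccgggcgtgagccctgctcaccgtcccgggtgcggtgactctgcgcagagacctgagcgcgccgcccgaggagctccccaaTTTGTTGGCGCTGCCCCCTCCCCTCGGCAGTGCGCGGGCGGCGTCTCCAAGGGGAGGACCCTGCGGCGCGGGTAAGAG
The start sites used for these windows are 21 bases apart, and both lie inside the shared stretch.

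The remaining basement membrane genes were of moderate or low abundance. Sparc (chr11:55394159-55420080), a collagen-binding matrix protein, had 37.1, 30.03, 30.3 and 54.3 transcripts per 10000 in Ecad-negative libraries 1 to 4, against 2.35, 5.72, 3.32 and 2.56 in Ecad-positive cells. For Sparc every Ecad-negative sum exceeded every Ecad-positive sum (log2 fold change 3.34, SE 0.26, edgeR adjusted p = 8.33e-08). Its relative Sparcl1 had 8.61, 9.22, 9.91 and 28.6 transcripts per 10000 in Ecad-negative libraries 1 to 4, against 2.52, 4.46, 4.65 and 2.19 in Ecad-positive cells, and library 4 stood above the other Ecad-negative sums (log2 fold change 1.8, SE 0.34, edgeR adjusted p = 0.00237). Nid1, encoding nidogen, the linker between laminin and type IV collagen, had 1.88, 1.83, 1.65 and 1.75 transcripts per 10000 in Ecad-negative libraries 1 to 4, against 0, 0.139, 0 and 0 in Ecad-positive cells. These are 33 transcripts in Ecad-negative cells and 1 in Ecad-positive cells, a ratio of 34.2 with a 95% counting interval of 5.73 to 1391 (log2 fold change 4.54, SE 0.77, edgeR adjusted p = 0.000781). Hspg2, encoding the proteoglycan perlecan, had 2.96, 2.74, 3.85 and 3.5 transcripts per 10000 in Ecad-negative libraries 1 to 4, against 0.336, 0.279, 0.997 and 0.366 in Ecad-positive cells. For Hspg2 every Ecad-negative sum exceeded every Ecad-positive sum (log2 fold change 2.84, SE 0.49, edgeR adjusted p = 0.000987). Lamc1, a laminin gamma chain, averaged 3.14 ± 0.52 in Ecad-negative cells and 0.717 ± 0.676 in Ecad-positive cells per 10000 (SD, n = 4, as for all means here, log2 fold change 2.55, SE 0.52, edgeR adjusted p = 0.00483). Lamb1, a laminin beta chain, averaged 4.47 ± 2.14 in Ecad-negative cells and 0.809 ± 0.356 in Ecad-positive cells (log2 fold change 2.14, SE 0.45, edgeR adjusted p = 0.00589). The groups did not overlap for any of these 8 genes. The member tested and not called was Pxdn, a peroxidase that crosslinks type IV collagen (1.61, 1.92, 1.1 and 4.08 in Ecad-negative cells and 1.35, 1.12, 1.66 and 0.731 in Ecad-positive cells, log2 fold change 0.76, SE 0.47, edgeR adjusted p = 0.449). Lamc1 was not called without library 1 (adjusted p = 0.109) or library 2 (0.0535), nor Lamb1 without library 3 (0.0603). In the same sums markers of endothelial cells took 0.187 to 0.402% of transcripts in Ecad-negative cells and 0.0183 to 0.199% in Ecad-positive cells, and their part in the result was not tested.

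**Figure D2:**
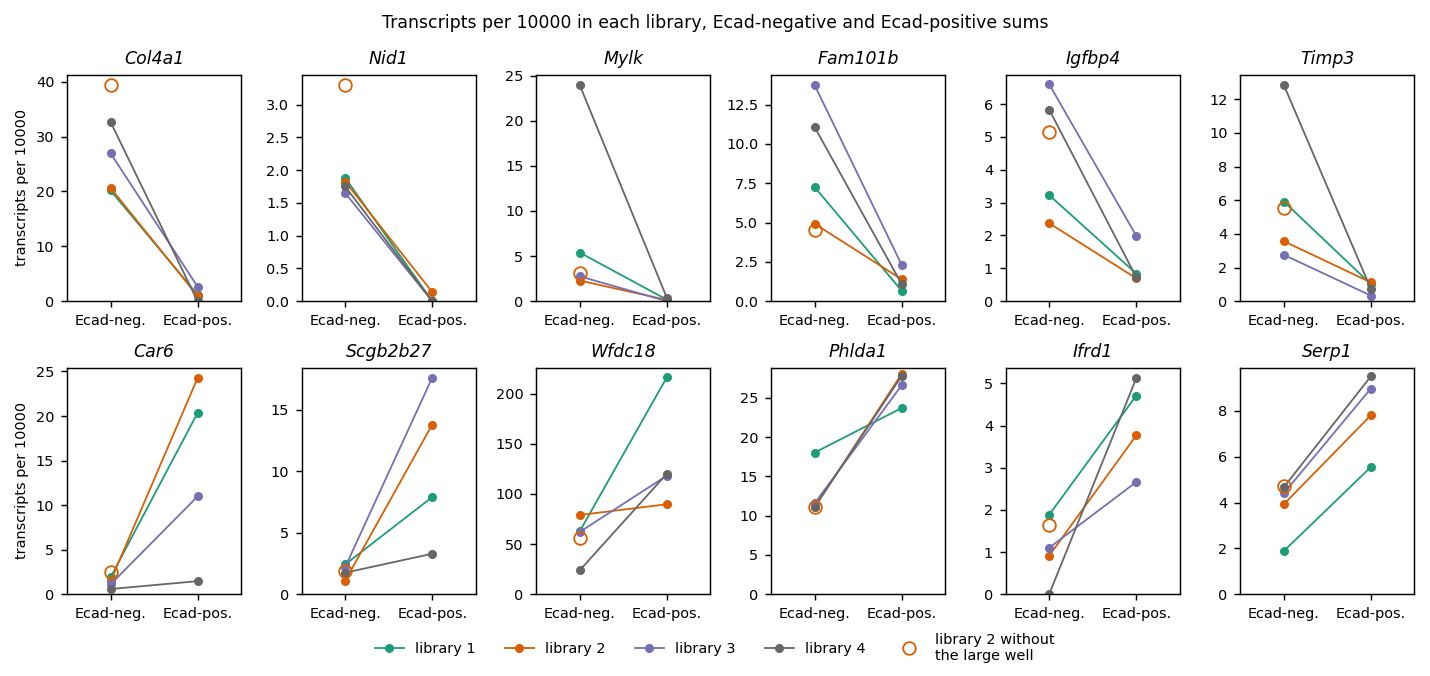
Transcripts per 10000 of 12 genes in the Ecad-negative (left) and Ecad-positive (right) sum of each library, joined by library, with an open circle for library 2 of Ecad-negative cells without its large well. The upper genes are higher in Ecad-negative cells in all 4 libraries, and the lower genes are lower in Ecad-negative cells in all 4 libraries.

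Further matrix and secreted genes outside the basement membrane were also higher in Ecad-negative cells. Mgp, a matrix protein that binds calcium and limits mineral deposition, had 3.23, 3.38, 2.2 and 8.17 transcripts per 10000 in Ecad-negative libraries 1 to 4, against 0.168, 0.418, 0.332 and 0.366 in Ecad-positive cells. For Mgp every Ecad-negative sum exceeded every Ecad-positive sum (log2 fold change 3.51, SE 0.51, edgeR adjusted p = 0.000158). Timp3, an inhibitor of metalloproteinases that stays bound to matrix, had 5.92, 3.56, 2.75 and 12.8 transcripts per 10000 in Ecad-negative libraries 1 to 4, against 1.01, 1.12, 0.332 and 0.731 in Ecad-positive cells. For Timp3 every Ecad-negative sum exceeded every Ecad-positive sum (log2 fold change 2.61, SE 0.43, edgeR adjusted p = 0.00068). Bgn, a small leucine-rich proteoglycan, had 5.11, 3.83, 4.4 and 8.17 transcripts per 10000 in Ecad-negative libraries 1 to 4, against 1.01, 1.39, 0.997 and 0.366 in Ecad-positive cells. For Bgn every Ecad-negative sum exceeded every Ecad-positive sum (log2 fold change 2.26, SE 0.43, edgeR adjusted p = 0.0024). Col16a1, a collagen associated with fibrils, had 5.92, 2.74, 2.75 and 2.33 transcripts per 10000 in Ecad-negative libraries 1 to 4, against 0.336, 0.558, 0.332 and 0.366 in Ecad-positive cells. For Col16a1 every Ecad-negative sum exceeded every Ecad-positive sum (log2 fold change 3.03, SE 0.50, edgeR adjusted p = 0.00068). Col9a3, better known from cartilage, averaged 2.55 ± 1.2 in Ecad-negative cells and 0.567 ± 0.383 in Ecad-positive cells (log2 fold change 2.05, SE 0.50, edgeR adjusted p = 0.0192). The gene listed as 1500015O10Rik (Ecrg4 in RefSeq, chr1:43730602-43742564), which encodes a secreted peptide precursor, had 2.42, 2.74, 4.4 and 4.67 transcripts per 10000 in Ecad-negative libraries 1 to 4, against 0.168, 0.558, 0.332 and 0.366 in Ecad-positive cells. For 1500015O10Rik every Ecad-negative sum exceeded every Ecad-positive sum (log2 fold change 3.05, SE 0.51, edgeR adjusted p = 0.00068). It was found in 15 Ecad-negative wells and 6 Ecad-positive wells. Col16a1 was not called without library 1 (adjusted p = 0.0503), nor Col9a3 without library 3 (0.0724). Of the list of mesenchymal genes, which includes Sparc, Timp3, Bgn, Vim, Acta2 and Tagln, 6 of 12 tested members were higher and 0 lower, with a median log2 fold change of 2.13. Of this list 10 of 13 were higher without the large well and 3 of 11 without the 37 wells. Of all genes tested, 3.28% were called higher with all wells, 5.62% without the large well and 1.37% without the 37 wells. Of 4 tested collagen-processing enzymes, 0 were called by edgeR, 0 had an unadjusted p under 0.05 and 0 were called by DESeq2 or limma, with a median log2 fold change of 0.31. P4hb, a subunit of prolyl hydroxylase, stood at 6.46, 10.6, 7.71 and 8.17 in Ecad-negative cells and 7.4, 9.76, 5.32 and 8.41 in Ecad-positive cells. Of the fibroblast list 0 of 2 tested members were called (median 1.02, edgeR, both higher at an unadjusted p under 0.05, 0 by DESeq2 and limma). These were Col3a1 (2.42, 1.64, 4.4 and 2.33 in Ecad-negative cells and 1.01, 0.836, 1.33 and 2.19 in Ecad-positive cells) and Col1a2 (2.69, 1.73, 4.4 and 9.34 in Ecad-negative cells and 2.52, 1.81, 0.665 and 1.83 in Ecad-positive cells).

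Contractile genes formed the next group. Of 16 tested members 6 were higher in Ecad-negative cells and 0 lower, and all 16 had a positive log2 fold change, with a median of 1.4. Of all genes tested 3.28% were called higher. Without the large well 9 of 16 were higher (5.62% of all genes tested), and without the 37 wells 0 of 11 (1.37% of all, edgeR, 4 higher at an unadjusted p under 0.05, and with all wells 2 of the 11 by DESeq2 and 2 by limma). Markers of basal cells, whose list also holds Acta2 and Mylk, took 0.131 to 0.893% of transcripts in Ecad-negative cells and 0.0387 to 0.0512% in Ecad-positive cells, and their part in the result was not tested. Mylk (chr16:34745199-35002436), the kinase that activates myosin in smooth muscle and myoepithelium, had 5.38, 2.28, 2.75 and 23.9 transcripts per 10000 in Ecad-negative libraries 1 to 4, against 0.168, 0.139, 0 and 0.366 in Ecad-positive cells. These are 91 transcripts in Ecad-negative cells and 3 in Ecad-positive cells, a ratio of 31.4 with a 95% counting interval of 10.4 to 155 (log2 fold change 5.12, SE 0.54, edgeR adjusted p = 3.01e-06). Library 4 lay far above the other Ecad-negative sums, which themselves lay above every Ecad-positive sum. Acta2, smooth muscle actin, had 34.7, 4.47, 10.5 and 49 transcripts per 10000 in Ecad-negative libraries 1 to 4, against 0.673, 1.81, 0.997 and 2.19 in Ecad-positive cells. For Acta2 every Ecad-negative sum exceeded every Ecad-positive sum (log2 fold change 3.7, SE 0.46, edgeR adjusted p = 2.96e-05). Libraries 1 and 4 were the high ones. Its log2 fold change was 2.97 without library 1 and 4.79 without library 2. Myl9, a regulatory myosin light chain, had 5.38, 2.37, 3.3 and 9.92 transcripts per 10000 in Ecad-negative libraries 1 to 4, against 0.504, 0.418, 0.332 and 0 in Ecad-positive cells. For Myl9 every Ecad-negative sum exceeded every Ecad-positive sum (log2 fold change 3.54, SE 0.53, edgeR adjusted p = 0.000225). Without library 4 its log2 fold change was 2.94. Tagln, an actin-binding protein of smooth muscle, had 16.7, 0.822, 1.65 and 22.2 transcripts per 10000 in Ecad-negative libraries 1 to 4, against 0.504, 1.12, 2.33 and 0.731 in Ecad-positive cells. Ecad-negative cells were higher in libraries 1 and 4 and lower in libraries 2 and 3. Its call (log2 fold change 2.61, SE 0.66, edgeR adjusted p = 0.0236) was lost without library 4 (log2 fold change 1.82, adjusted p = 0.0796). Without library 2 the log2 fold change was 3.59. Flna, an actin crosslinker, averaged 5.54 ± 2.54 in Ecad-negative cells and 1.67 ± 0.689 in Ecad-positive cells per 10000 (log2 fold change 1.71, SE 0.35, edgeR adjusted p = 0.00499). Tpm4, a tropomyosin, averaged 3.07 ± 1.17 in Ecad-negative cells and 1.15 ± 0.368 in Ecad-positive cells (log2 fold change 1.57, SE 0.43, edgeR adjusted p = 0.0407). Neither was called without library 1 (adjusted p = 0.111 and 0.102), and Tpm4 was also lost without library 2 (0.421) or library 3 (0.122). The non-muscle light chains Myl6 (21.3, 15.5, 13.8 and 16.3 in Ecad-negative cells and 15.1, 10.9, 14.6 and 13.9 in Ecad-positive cells) and Myl12a (10.2, 10.6, 9.36 and 13.4 in Ecad-negative cells and 8.74, 6.69, 14 and 7.68 in Ecad-positive cells) were abundant and were not called.

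Of 24 tested regulators of actin and small GTPases 3 were higher and 0 lower, where 3.28% of all genes tested were called higher, with a median log2 fold change of 0.37. Fam101b (Rflnb in RefSeq, chr11:76019194-76027782), a partner of filamin, had 7.26, 4.93, 13.8 and 11.1 transcripts per 10000 in Ecad-negative libraries 1 to 4, against 0.673, 1.39, 2.33 and 1.1 in Ecad-positive cells. Every Ecad-negative sum was above every Ecad-positive sum (log2 fold change 2.66, SE 0.35, edgeR adjusted p = 5.82e-05), and the log2 fold change was 2.66 without the large well. Msn, which links actin to the membrane, averaged 5.38 ± 1.57 in Ecad-negative cells and 1.55 ± 0.793 in Ecad-positive cells (log2 fold change 1.66, SE 0.38, edgeR adjusted p = 0.0108). Actb, cytoplasmic beta actin, had 52.5, 40.7, 44.6 and 45.5 transcripts per 10000 in Ecad-negative libraries 1 to 4, against 30.9, 29, 32.2 and 26.7 in Ecad-positive cells. For Actb every Ecad-negative sum exceeded every Ecad-positive sum (log2 fold change 0.66, SE 0.15, edgeR adjusted p = 0.0105). Its near-copy Actg1 had 41.4, 43.1, 49.5 and 47.9 in Ecad-negative cells and 54, 48, 45.2 and 54.5 in Ecad-positive cells and was not called (adjusted p = 0.777). Reads of such close relatives may have been split between genes by the counting, so their values are uncertain. Msn and Actb were not called without library 1 (adjusted p = 0.051 and 0.12) or without library 3 (0.0886 and 0.0916).

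Among secreted regulators, the binding proteins of insulin-like growth factor were all 3 tested members of their list, and 3 of 3 were higher in Ecad-negative cells, with a median log2 fold change of 2.02. All 3 were also higher without the large well, and without the 37 wells Igfbp5 alone was tested and was not called. Of all genes tested, 3.28% were called higher with all wells and 5.62% without the large well. Igfbp3 had 21.3, 4.84, 22.6 and 18.1 transcripts per 10000 in Ecad-negative libraries 1 to 4, against 0.673, 1.67, 0.997 and 0 in Ecad-positive cells. For Igfbp3 every Ecad-negative sum exceeded every Ecad-positive sum (log2 fold change 3.79, SE 0.48, edgeR adjusted p = 3.89e-05). Without library 2 its log2 fold change was 5.1. Igfbp4 had 3.23, 2.37, 6.61 and 5.84 transcripts per 10000 in Ecad-negative libraries 1 to 4, against 0.841, 0.697, 1.99 and 0.731 in Ecad-positive cells. For Igfbp4 every Ecad-negative sum exceeded every Ecad-positive sum (log2 fold change 2.02, SE 0.41, edgeR adjusted p = 0.00461). Igfbp5, already abundant in Ecad-positive cells, had 55.4, 66.8, 54.5 and 117 transcripts per 10000 in Ecad-negative libraries 1 to 4, against 39.8, 40.4, 36.6 and 76.4 in Ecad-positive cells. Library 4 of Ecad-positive cells was above 3 of the 4 Ecad-negative sums, though Ecad-negative cells were the higher of the pair in each library (log2 fold change 0.64, SE 0.14, edgeR adjusted p = 0.00794, lost without library 3, adjusted p = 0.0886). Of 7 tested targets of TGF-beta signalling 4 were higher (3.28% of all genes tested) and 0 lower, with a median log2 fold change of 1.12. It was 3 of 7 without the large well (5.62% of all) and 2 of 6 without the 37 wells (1.37% of all). Pmepa1, a TGF-beta target that also dampens the pathway, had 12.9, 10.3, 7.16 and 12.8 transcripts per 10000 in Ecad-negative libraries 1 to 4, against 4.2, 4.18, 6.31 and 6.95 in Ecad-positive cells. For Pmepa1 every Ecad-negative sum exceeded every Ecad-positive sum (log2 fold change 1.12, SE 0.27, edgeR adjusted p = 0.018). Ctgf, a matricellular target of TGF-beta and of YAP, had 7.0, 1.64, 2.75 and 4.67 transcripts per 10000 in Ecad-negative libraries 1 to 4, against 2.52, 0.279, 0 and 0.731 in Ecad-positive cells (log2 fold change 2.16, SE 0.47, edgeR adjusted p = 0.00794), with overlapping groups. Id3, a target of the related BMP pathway, averaged 2.6 ± 0.682 in Ecad-negative cells and 0.566 ± 0.657 in Ecad-positive cells (log2 fold change 2.04, SE 0.52, edgeR adjusted p = 0.0236, and a log2 fold change of 2.94 without library 1). Ski, a repressor of this signalling, averaged 2.71 ± 1.34 in Ecad-negative cells and 1.01 ± 0.584 in Ecad-positive cells (log2 fold change 1.58, SE 0.45, edgeR adjusted p = 0.0476). Pmepa1 lost its call without library 1 (edgeR adjusted p = 0.206) or 2 (0.0708), Id3 without library 2 (0.168) or 3 (0.136), and Ski without any 1 of the 4 libraries (adjusted p of 0.256, 0.246, 0.0891 and 0.108). Of 3 tested YAP targets, Ctgf and Igfbp3 were higher, against 3.28% of all genes tested, and Cyr61 (8.61, 1.1, 4.95 and 1.17 in Ecad-negative cells and 7.73, 5.58, 5.32 and 3.66 in Ecad-positive cells) was not called, with a median log2 fold change of 2.16.

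Several genes outside these groups were also higher in Ecad-negative cells. Rn45s, the precursor of ribosomal RNA, had 24.8, 30.9, 20.4 and 22.2 transcripts per 10000 in Ecad-negative libraries 1 to 4, against 10.4, 12.8, 16.3 and 6.22 in Ecad-positive cells. For Rn45s every Ecad-negative sum exceeded every Ecad-positive sum (log2 fold change 1.18, SE 0.21, edgeR adjusted p = 0.00103). The method primes on poly(A) tails, so transcripts of this gene are not a measure of ribosomal RNA content. Alkbh5, an RNA demethylase that removes N6-methyladenosine, had 5.38, 5.11, 7.16 and 10.5 transcripts per 10000 in Ecad-negative libraries 1 to 4, against 2.35, 2.93, 0.332 and 2.19 in Ecad-positive cells. For Alkbh5 every Ecad-negative sum exceeded every Ecad-positive sum (log2 fold change 1.64, SE 0.39, edgeR adjusted p = 0.0152). It was found in 22 Ecad-negative wells and 24 Ecad-positive wells. Apoe, a lipid carrier also made by macrophages, had 12.6, 8.03, 6.05 and 23.3 transcripts per 10000 in Ecad-negative libraries 1 to 4, against 1.68, 5.3, 2.66 and 4.39 in Ecad-positive cells. For Apoe every Ecad-negative sum exceeded every Ecad-positive sum (log2 fold change 1.73, SE 0.34, edgeR adjusted p = 0.00351). Nedd4, a ubiquitin ligase, had 14.8, 10.6, 9.36 and 15.2 transcripts per 10000 in Ecad-negative libraries 1 to 4, against 7.06, 5.72, 6.31 and 8.41 in Ecad-positive cells. For Nedd4 every Ecad-negative sum exceeded every Ecad-positive sum (log2 fold change 0.91, SE 0.23, edgeR adjusted p = 0.0236). Gnai2, an inhibitory G protein subunit, averaged 4.8 ± 0.865 in Ecad-negative cells and 1.8 ± 0.728 in Ecad-positive cells (log2 fold change 1.37, SE 0.36, edgeR adjusted p = 0.028). Kcnq1ot1, a long noncoding RNA transcribed antisense within Kcnq1, had 9.96, 11.9, 13.2 and 18.7 transcripts per 10000 in Ecad-negative libraries 1 to 4, against 4.71, 6.41, 6.98 and 12.4 in Ecad-positive cells. For Kcnq1ot1 the groups overlapped (log2 fold change 0.9, SE 0.23, edgeR adjusted p = 0.0217). It is unknown here if counting used strand. The calls of Nedd4 and Kcnq1ot1 were lost without any 1 of the 4 libraries (adjusted p of 0.19, 0.0615, 0.106 and 0.0904 for Nedd4, and 0.137, 0.0634, 0.176 and 0.0518 for Kcnq1ot1), and so was that of Gnai2 (0.111, 0.0709, 0.122 and 0.0869). Apoe was lost without library 1 (0.0659) and stood at a log2 fold change of 2.36 without library 2, and Alkbh5 was lost without library 1 (0.0581) or 3 (0.102).

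The genes lower in Ecad-negative cells were led by secreted products. Car6 (chr4:150187015-150201135), a secreted carbonic anhydrase of saliva and milk, had 1.88, 1.46, 1.1 and 0.584 transcripts per 10000 in Ecad-negative libraries 1 to 4, against 20.3, 24.3, 11 and 1.46 in Ecad-positive cells. Ecad-negative cells were lower in 4 of 4 libraries, and the sums overlapped because library 4 of Ecad-positive cells was within the range of the Ecad-negative sums (log2 fold change −3.59, SE 0.34, edgeR adjusted p = 7.86e-07). In Ecad-positive cells, 38.6% of its transcripts came from 1 well. Scgb2b27 (chr7:34011919-34013942), a secretoglobin of the androgen-binding protein family, had 2.42, 1.1, 2.2 and 1.75 transcripts per 10000 in Ecad-negative libraries 1 to 4, against 7.9, 13.8, 17.6 and 3.29 in Ecad-positive cells. For Scgb2b27 every Ecad-negative sum was under every Ecad-positive sum (log2 fold change −2.61, SE 0.38, edgeR adjusted p = 0.000187). Without library 2 its log2 fold change was −1.97. Its neighbour Scgb1b27 (chr7:34021481-34022881) encodes a partner subunit and had 2.96, 1.28, 1.65 and 0 transcripts per 10000 in Ecad-negative libraries 1 to 4, against 1.35, 25.5, 12 and 0.366 in Ecad-positive cells. Libraries 2 and 3 of Ecad-positive cells were high, and Ecad-negative cells were the higher ones in library 1 (log2 fold change −2.54, SE 0.65, edgeR adjusted p = 0.0236, lost without library 3, adjusted p = 0.162). A single Ecad-positive well held 63.8% of the Scgb1b27 transcripts of Ecad-positive cells. Both were found in 4 of 69 Ecad-negative wells and 17 of 71 Ecad-positive wells, and this family has near-identical copies among which the counting may have split reads. Scgb1b27 was found in 16 Ecad-negative and 23 Ecad-positive wells and Scgb2b27 in 19 and 36.

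Of 8 tested genes of milk and luminal secretion 0 were higher and 3 were lower in Ecad-negative cells, where 1.42% of all genes tested were called lower. All 8 had a negative log2 fold change, with a median of −0.72. Of these genes 6 of 8 were lower without the large well (3.12% of all genes tested) and 1 of 7 without the 37 wells (0.736% of all). Wfdc18, a small secreted protein of mammary epithelium, had 63, 79.1, 62.2 and 23.9 transcripts per 10000 in Ecad-negative libraries 1 to 4, against 217, 89.8, 118 and 120.3 in Ecad-positive cells. For Wfdc18 every Ecad-negative sum was under every Ecad-positive sum (log2 fold change −1.19, SE 0.23, edgeR adjusted p = 0.00343, lost without library 1, adjusted p = 0.111). The milk casein gene Csn3 had 56.2, 106, 55 and 72.9 transcripts per 10000 in Ecad-negative libraries 1 to 4, against 148, 111, 107 and 178 in Ecad-positive cells. For Csn3 every Ecad-negative sum was under every Ecad-positive sum (log2 fold change −0.86, SE 0.19, edgeR adjusted p = 0.00702, lost without library 1, adjusted p = 0.172). Clic6, a chloride channel family member, had 2.15, 3.93, 2.2 and 1.75 transcripts per 10000 in Ecad-negative libraries 1 to 4, against 8.91, 7.53, 5.32 and 8.04 in Ecad-positive cells. For Clic6 every Ecad-negative sum was under every Ecad-positive sum (log2 fold change −1.43, SE 0.32, edgeR adjusted p = 0.00903, lost without library 1, adjusted p = 0.132). Csn3 was found in all 69 Ecad-negative wells and in 69 of 71 Ecad-positive wells, so nearly every well of either label held milk transcripts. It was also found in 31 of 60 wells of Ecad-negative cells sorted from blood (labelled as circulating tumour cells) in the same libraries, whose median well held 819 transcripts.

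Immediate early genes are switched on within minutes by external stimuli. Of 27 tested members 0 were higher and 5 were lower in Ecad-negative cells, and 24 had a negative log2 fold change, with a median of −0.5. Of all genes tested 1.42% were called lower. Without the large well 6 of 27 were lower (3.12% of all genes tested) and without the 37 wells 4 of 25 (0.736% of all), while DESeq2 called 0 with all wells and limma 7 lower. Phlda1, induced by growth factor signalling, had 18, 11, 11.6 and 11.1 transcripts per 10000 in Ecad-negative libraries 1 to 4, against 23.7, 28, 26.6 and 27.8 in Ecad-positive cells. For Phlda1 every Ecad-negative sum was under every Ecad-positive sum (log2 fold change −1.0, SE 0.19, edgeR adjusted p = 0.00295). Fos, a subunit of the transcription factor AP-1, had 29.9, 4.75, 24.8 and 12.3 transcripts per 10000 in Ecad-negative libraries 1 to 4, against 48.1, 24, 29.2 and 34.4 in Ecad-positive cells. For Fos the groups overlapped (log2 fold change −1.13, SE 0.25, edgeR adjusted p = 0.00794). Zfp36, an RNA-binding protein that destabilises transcripts with AU-rich ends, had 7.53, 2.65, 5.5 and 9.34 transcripts per 10000 in Ecad-negative libraries 1 to 4, against 11.4, 16.4, 14 and 12.8 in Ecad-positive cells. For Zfp36 every Ecad-negative sum was under every Ecad-positive sum (log2 fold change −1.29, SE 0.32, edgeR adjusted p = 0.0197). The AP-1 subunit Jun had 14.8, 3.1, 8.26 and 2.92 transcripts per 10000 in Ecad-negative libraries 1 to 4, against 16.1, 12.3, 15.6 and 11.7 in Ecad-positive cells. For Jun the groups overlapped (log2 fold change −1.09, SE 0.30, edgeR adjusted p = 0.0386). Fosb, another AP-1 subunit, had 3.5, 0.822, 6.05 and 0.584 transcripts per 10000 in Ecad-negative libraries 1 to 4, against 13.6, 6.27, 3.32 and 9.14 in Ecad-positive cells. For Fosb the groups overlapped (log2 fold change −1.79, SE 0.46, edgeR adjusted p = 0.0236). Junb (7.0, 2.65, 4.4 and 3.5 in Ecad-negative cells and 9.92, 5.3, 4.32 and 6.58 in Ecad-positive cells) and Egr1 (7.0, 3.56, 7.16 and 10.5 in Ecad-negative cells and 10.4, 6.27, 7.31 and 8.41 in Ecad-positive cells) were not called. Several of these calls were lost without 1 library. Fos, Zfp36, Jun and Fosb were not called without library 2 (adjusted p of 0.0634, 0.226, 0.319 and 0.144), Zfp36 and Jun not without library 3 (0.08 and 0.0938), and Fosb not without library 1 (0.233). The log2 fold change was −0.7 for Zfp36 without library 2 and −2.62 for Fosb without library 3.

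The promoter windows of Myl9 (chr2:156775214-156775513, plus strand) and Zfp36 (chr7:28379179-28379478, minus strand; RefSeq, GRCm38.p6) are shown because each holds a CArG box, while the genes moved in opposite directions. This is the site of serum response factor, which acts on both contractile and immediate early genes. Capitals mark the box, and both strands were searched.
Myl9: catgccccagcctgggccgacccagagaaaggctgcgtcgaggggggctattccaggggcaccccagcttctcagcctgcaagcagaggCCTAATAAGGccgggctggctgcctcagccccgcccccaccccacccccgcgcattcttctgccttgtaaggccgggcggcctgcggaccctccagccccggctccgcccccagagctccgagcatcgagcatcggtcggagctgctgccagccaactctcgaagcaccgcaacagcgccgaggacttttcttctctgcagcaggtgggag
Zfp36: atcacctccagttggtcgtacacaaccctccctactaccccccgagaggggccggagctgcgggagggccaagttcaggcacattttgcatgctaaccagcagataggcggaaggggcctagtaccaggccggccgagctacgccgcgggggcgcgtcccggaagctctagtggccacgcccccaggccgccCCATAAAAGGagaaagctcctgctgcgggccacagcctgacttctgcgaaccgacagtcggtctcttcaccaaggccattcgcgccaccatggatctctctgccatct
The boxes start at −161 in Myl9 and at −58 in Zfp36, counted from the transcription start. A CArG box was in 1 of 27 windows of genes called higher and in 1 of 12 of genes called lower, against 2.11% of the 900 tested genes with a window and 1.63% of all 32851 windows, also with no test.

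Further called genes lower in Ecad-negative cells had varied roles. Ifrd1, an interferon-related developmental regulator, had 1.88, 0.913, 1.1 and 0 transcripts per 10000 in Ecad-negative libraries 1 to 4, against 4.71, 3.76, 2.66 and 5.12 in Ecad-positive cells. For Ifrd1 every Ecad-negative sum was under every Ecad-positive sum (log2 fold change −1.87, SE 0.46, edgeR adjusted p = 0.0188). Serp1, a protein of the endoplasmic reticulum membrane that acts under stress, had 1.88, 3.93, 4.4 and 4.67 transcripts per 10000 in Ecad-negative libraries 1 to 4, against 5.55, 7.81, 8.97 and 9.51 in Ecad-positive cells. For Serp1 every Ecad-negative sum was under every Ecad-positive sum (log2 fold change −1.08, SE 0.28, edgeR adjusted p = 0.028). Appl2, an endosomal adaptor, averaged 0.485 ± 0.343 in Ecad-negative cells and 2.17 ± 0.535 in Ecad-positive cells (log2 fold change −1.88, SE 0.52, edgeR adjusted p = 0.0414). The ribosomal protein gene Rpl39 had 24.8, 23.7, 27 and 5.25 transcripts per 10000 in Ecad-negative libraries 1 to 4, against 34.8, 42.2, 33.6 and 22.3 in Ecad-positive cells. For Rpl39 the groups overlapped (log2 fold change −0.73, SE 0.20, edgeR adjusted p = 0.0389). Ribosomal protein genes as a group leaned the same way, with 72 of 76 tested members below 0, a median log2 fold change of −0.28, 22 lower at an unadjusted p under 0.05, and 1 called lower (1.42% of all genes tested) and 0 higher. Among all 1128 genes tested, 177 had an unadjusted p under 0.05 in either direction, and the median log2 fold change was −0.02. Rpl39 has processed copies in the genome that may share reads. Each of these 4 calls was lost without 1 or more single libraries. They were Serp1 and Rpl39 without library 1 (0.186 and 0.115), 2 (0.0709 and 0.144) or 3 (0.0788 and 0.0502). The others were Ifrd1 without library 1 (0.0641) or 2 (0.0873) and Appl2 without library 3 (0.0861) or 4 (0.0518), each an edgeR adjusted p.

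**Figure D3:**
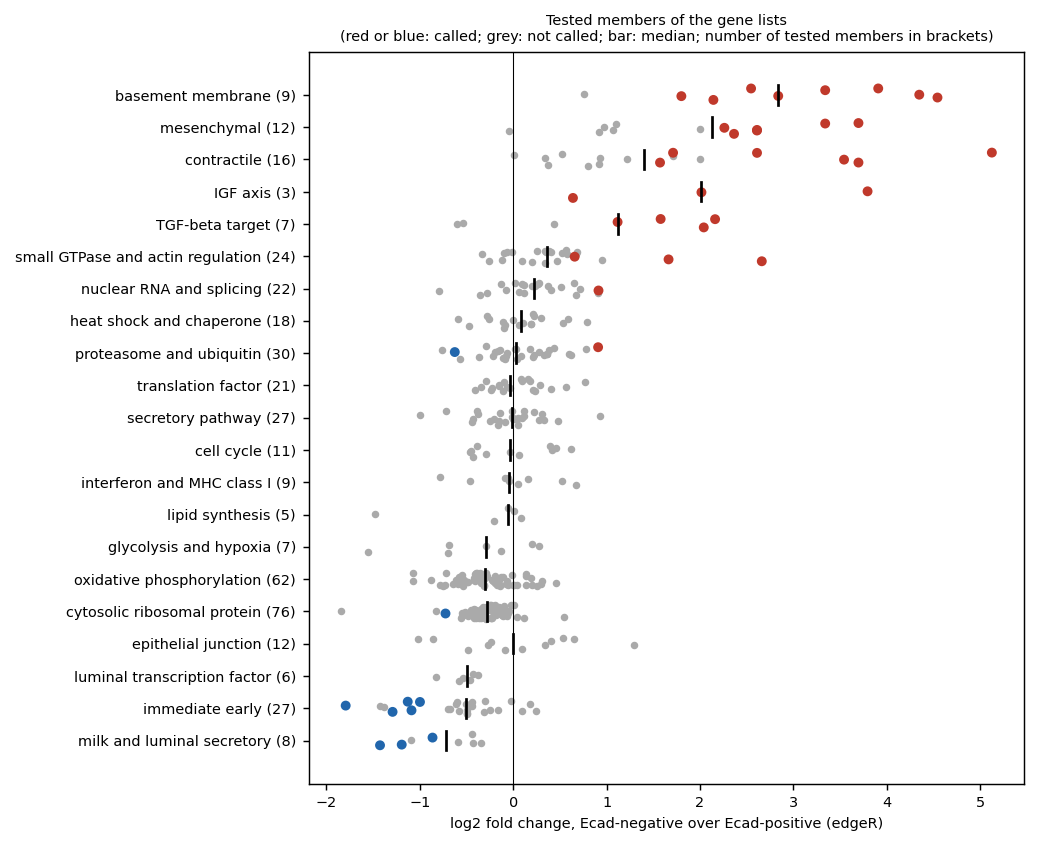
Log2 fold changes, Ecad-negative over Ecad-positive, of the tested members of 21 gene lists, with the number tested in brackets and a bar at the median. Basement membrane, mesenchymal, contractile and IGF axis members lie to the right, milk and immediate early members to the left, and oxidative phosphorylation and ribosomal protein members cluster just below 0.

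Many cellular programmes held no called gene with all wells. Their counts at an unadjusted p stand against 177 of all 1128 genes tested with such a p under 0.05 in either direction. Of 62 tested genes of oxidative phosphorylation, 0 were called (edgeR, 7 lower at an unadjusted p under 0.05, 0 by DESeq2, 5 lower by limma), 51 were below 0 and the median was −0.30. For the cell cycle 0 of 11 were called (median −0.04) and 0 passed an unadjusted p under 0.05, DESeq2 or limma, and for translation factors 0 of 21 (median −0.04, 1 lower unadjusted, 0 by DESeq2 and limma). No edgeR or DESeq2 call was found in 8 further lists. These were chaperones (0 of 18, median 0.08, 0 unadjusted, 1 lower by limma), secretory pathway (0 of 27, median −0.01, 2 lower unadjusted and by limma), interferon and MHC class I genes (0 of 9, median −0.04, 1 higher unadjusted), glycolysis (0 of 7, median −0.29, 1 lower unadjusted and by limma), lipid synthesis (0 of 5, median −0.05, 1 lower unadjusted), luminal transcription factors (0 of 6, median −0.5, 1 lower unadjusted and 2 by limma), integrins and adhesion receptors (0 of 7, median 0.19, 1 higher unadjusted), and Notch and Wnt genes (0 of 2, median −0.43, 0 unadjusted). Of nuclear RNA and splicing genes 1 of 22 was higher (Kcnq1ot1), where 3.28% of all genes tested were called higher, with a median of 0.22. Without the large well Ifitm3 of the interferon list was called higher (log2 fold change 0.86, edgeR adjusted p = 0.0147), and Cox7c of oxidative phosphorylation and Sox9 of the luminal transcription factors were called lower. A p that misses the threshold does not show equal levels at this depth.

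Leaving out the large Ecad-negative well raised the number of calls. Of 1120 genes tested, 98 (8.75%) were then called, 63 higher (5.62%) and 35 lower (3.12%) in Ecad-negative cells. Of the 53 calls 52 were kept (98.1%), and they made up 53.1% of the 98. The gene lost was Ski (log2 fold change 1.47, SE 0.49, edgeR adjusted p = 0.0577, over all alternatives 0.039 to 0.428). All 53 kept their direction. Of the 52 genes called both ways, 35 had a fold change larger in size without the well, 31 of the 36 higher genes and 4 of the 16 lower genes. Among the lower genes Car6 was at −3.17, Scgb2b27 at −2.27 and Fos at −0.95 without the well, each nearer to 0 than with all wells. In that well, milk genes took 5.76% of transcripts, against a median of 2.24% in the other Ecad-negative wells and 4.71% in Ecad-positive wells. Basement membrane genes took 0.336%, against medians of 1.12% in the other Ecad-negative wells and 0.131% in Ecad-positive wells, and endothelial markers 0.0180%. Contractile genes took 0.789%, against medians of 0.831% in the other Ecad-negative wells and 0.466% in Ecad-positive wells, and IGF axis genes 0.845%, against 0.679% in the other Ecad-negative wells and 0.373% in Ecad-positive wells. Immediate early genes took 0.781%, against 1.18% in the other Ecad-negative wells and 1.88% in Ecad-positive wells, and ribosomal protein genes 17.5%, against 18.9% in the other Ecad-negative wells and 21.9% in Ecad-positive wells. Among these lists the well was nearer to the Ecad-positive median for milk and basement membrane genes. It was nearer to the median of the other Ecad-negative wells for contractile and IGF axis genes, and below both medians for immediate early and ribosomal protein genes. Other lists also went both ways. Mesenchymal genes took 0.388% (other Ecad-negative wells 1.14%, Ecad-positive wells 0.230%) and luminal transcription factors 0.300% (0.179% and 0.336%). Basal markers took 0.112% (0.113% and 0.0227%) and collagen-processing genes 0.276% (0.216% and 0.171%).

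Of the 46 genes called once the well was left out, 27 were higher and 19 lower in Ecad-negative cells. With all wells 42 of them were tested and not called, and 4 were not tested. Lcn2, an iron-siderophore binding protein secreted by mammary epithelium, had 62.7, 146, 69.9 and 60.7 transcripts per 10000 in Ecad-negative libraries 1 to 4, against 112, 131, 119 and 137 in Ecad-positive cells, with 73.1 in library 2 of Ecad-negative cells without the well (log2 fold change −0.84, SE 0.12, edgeR adjusted p = 9.35e-06, over all alternatives 1.14e-09 to 0.796). Trf, transferrin, had 30.9, 63.5, 41.3 and 50.8 transcripts per 10000 in Ecad-negative libraries 1 to 4, against 58, 67.8, 60.2 and 68 in Ecad-positive cells, with 41.4 without the well (log2 fold change −0.6, SE 0.13, edgeR adjusted p = 0.00239, over all alternatives 0.000178 to 0.928). Ltf, lactoferrin, had 5.92, 20.8, 6.61 and 2.92 transcripts per 10000 in Ecad-negative libraries 1 to 4, against 23.2, 9.9, 3.32 and 13.2 in Ecad-positive cells, with 6.18 without the well, which held 74.0% of all Ltf transcripts of Ecad-negative cells (log2 fold change −1.05, SE 0.31, edgeR adjusted p = 0.0275, over all alternatives 0.0275 to 0.994). Krt8 (log2 fold change −0.86 without the well), Krt18 (−0.93) and Sox9, a transcription factor of mammary progenitors (−0.85), were also called lower, as was the respiratory chain subunit Cox7c (−0.91). Ppp1cb, a catalytic subunit of the phosphatase that acts on myosin light chain, had 3.77, 4.84, 5.5 and 2.92 transcripts per 10000 in Ecad-negative libraries 1 to 4, against 11.4, 6.27, 8.97 and 11 in Ecad-positive cells and was called lower without the well (log2 fold change −1.08).

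Genes called higher once the well was left out included some of the matrix and of the actin machinery. Fstl1, a secreted glycoprotein related to Sparc, was tested in that setting and not with all wells. It had 2.96, 1.46, 4.4 and 3.5 transcripts per 10000 in Ecad-negative libraries 1 to 4, against 0.504, 0.418, 0.332 and 0.366 in Ecad-positive cells, with 1.85 without the well (log2 fold change 2.72, SE 0.54, edgeR adjusted p = 0.000718, over all alternatives 0.000718 to 0.0306). Gpihbp1 (chr15:75596630-75598213), which carries lipoprotein lipase across capillary endothelium, had 5.92, 0.913, 3.85 and 3.5 transcripts per 10000 in Ecad-negative libraries 1 to 4, against 0, 0, 0.665 and 0.366 in Ecad-positive cells. These are 45 transcripts in Ecad-negative cells and 3 in Ecad-positive cells, a ratio of 15.5 with a 95% counting interval of 4.99 to 78.2 (log2 fold change 4.32, SE 0.65, edgeR adjusted p = 1.77e-05, over all alternatives 1.08e-06 to 0.00136). Gpihbp1 was also not tested with all wells, and such a low gene passes the filter through the group where it is high. Slc6a6, the taurine transporter, averaged 2.21 ± 0.947 in Ecad-negative cells and 0.216 ± 0.33 in Ecad-positive cells and was called without the well (log2 fold change 2.96). Vwa1, a matrix protein of basement membranes, was called as well (1.93). Tpm2 (2.09), Myh9 (1.04), Actn4 (1.04), Cald1 (1.04), Marcks (1.22) and Tmsb4x (0.56) of the actin and myosin machinery were called higher on the log2 scale. Malat1, a nuclear long noncoding RNA, had 22.6, 16.3, 19.8 and 11.1 transcripts per 10000 in Ecad-negative libraries 1 to 4, against 10.6, 13.9, 9.64 and 8.41 in Ecad-positive cells, with 21.2 without the well (log2 fold change 0.87, SE 0.19, edgeR adjusted p = 0.00186, over all alternatives 0.000236 to 0.886). Ahdc1, a DNA-binding protein gene, had 17.5, 6.12, 35.8 and 5.25 transcripts per 10000 in Ecad-negative libraries 1 to 4, against 8.24, 5.99, 6.98 and 7.68 in Ecad-positive cells, with 11.9 without the well, and library 3 stood above the others (log2 fold change 1.21, SE 0.26, edgeR adjusted p = 0.00183, over all alternatives 0.00052 to 0.889). The desmosomal gene Perp was called higher (1.5), against the direction of Epcam.

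**Figure D4:**
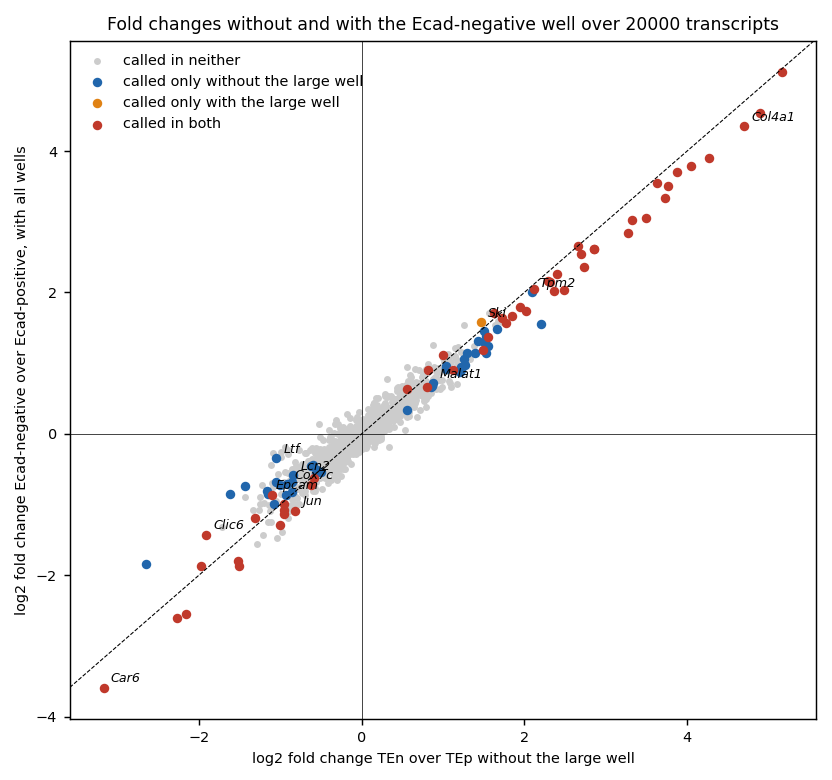
Each point is a gene tested both without (horizontal axis) and with (vertical axis) the Ecad-negative well over 20000 transcripts, as log2 fold change Ecad-negative over Ecad-positive. Of the 52 genes called both ways, 35 lie farther from 0 on the horizontal axis than on the vertical axis, and the genes called only without the well overlap with them in fold change.

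Wells within Ecad-negative cells differed. Of 69 Ecad-negative wells, 29 lay above every Ecad-positive well in the share of basement membrane transcripts, 5, 10, 4 and 10 of them in libraries 1 to 4. The median share was 1.08% in Ecad-negative wells and 0.131% in Ecad-positive wells, and the highest was 3.39% in Ecad-negative cells and 1.39% in Ecad-positive cells. Markers of other cell types were found in part of these wells. Endothelial markers took 0.307, 0.310, 0.402 and 0.187% of transcripts in Ecad-negative libraries, against 0.0235, 0.0265, 0.199 and 0.0183% in Ecad-positive cells, and 26 of 30 listed markers were measured, 0 of them tested with all wells. All 26 were detected in Ecad-negative cells. Flt4, Emcn, Robo4, Erg and Nos3 had 7, 3, 20, 1 and 7 transcripts there and 0 in Ecad-positive cells. Fabp4 had 23 transcripts in Ecad-negative cells and 35 in Ecad-positive cells. Cdh5, the cadherin of endothelial cells, had 65 transcripts in 24 Ecad-negative wells and 3 in 3 Ecad-positive wells. Of 69 Ecad-negative wells, 21 lay above every Ecad-positive well in the endothelial share, and 17 of these were among the 29 wells high in basement membrane genes.

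Basal and myoepithelial markers took 0.667, 0.131, 0.209 and 0.893% of transcripts in Ecad-negative libraries, against 0.0387, 0.0418, 0.0399 and 0.0512% in Ecad-positive cells. Of 17 listed markers 13 were measured, and all 13 were detected in Ecad-negative cells. The 2 tested, Acta2 and Mylk, were both called higher (median log2 fold change 4.41), against 3.28% of all genes tested. Krt15 and Jag2 had 9 and 2 transcripts in Ecad-negative cells and 0 in Ecad-positive cells. Krt5, a basal keratin, had 43 transcripts in 13 Ecad-negative wells and 1 in 1 Ecad-positive well. Of the Ecad-negative wells, 12 lay above every Ecad-positive well in this share, 0 of them among the 21 endothelial ones, and 7 among the 29 wells high in basement membrane genes. Contractile genes exceeded every Ecad-positive well in 13 Ecad-negative wells, of which 11 were above in basal markers and 1 in endothelial markers. The contractile and basal lists both hold Acta2 and Mylk, with 281 and 91 of the 583 basal-list transcripts in Ecad-negative cells. The overlap with wells high in basal markers was therefore partly fixed in advance. Acta2 and Mylk, both members of the basal list, were both found in 16 Ecad-negative wells and 1 Ecad-positive well, while Gpihbp1 and Acta2 were both found in 2 Ecad-negative wells and 0 Ecad-positive wells. Acta2 was found in 24 Ecad-negative and 16 Ecad-positive wells, Mylk in 25 and 3, and Gpihbp1 in 20 and 3. Fibroblast markers took 0.148, 0.0803, 0.231 and 0.350% in Ecad-negative libraries and 0.0689, 0.0739, 0.0665 and 0.0695% in Ecad-positive cells, with 18 of 24 markers measured. Fap and Postn had 1 transcript each in Ecad-negative cells and 0 in Ecad-positive cells, and Pi16 had 0 and 1. Members leaned both ways, with Serpinf1 at 58 transcripts in Ecad-negative cells and 13 in Ecad-positive cells, Thy1 at 2 and 6, and Col1a1 at 25 and 28. Pericyte markers took 0.0495 to 0.0700% in Ecad-negative cells and 0.0202 to 0.0502% in Ecad-positive cells, with 10 of 15 measured. Cspg4, Abcc9, Higd1b and Gucy1a3 had 1, 1, 1 and 3 transcripts in Ecad-negative cells and 0 in Ecad-positive cells. Mcam had 63 transcripts in Ecad-negative cells and 15 in Ecad-positive cells, Steap4 36 and 37, and Kcnj8 3 and 6. Leukocyte markers took 0.0383 to 0.0992% in Ecad-negative cells and 0.0265 to 0.123% in Ecad-positive cells, 13 of 15 measured. Ptprc and Evi2a were at 0 in both, and Cd37 had 2 transcripts in Ecad-negative cells and 0 in Ecad-positive cells. The part of these cell types in the differences was not tested.

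**Figure D5:**
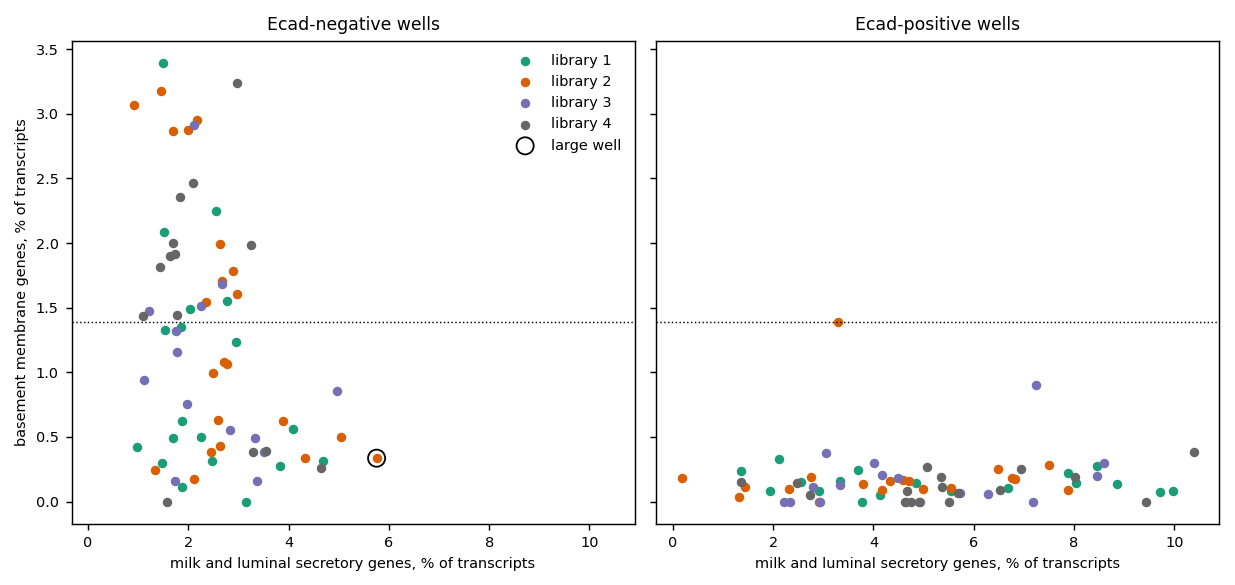
Each point is an Ecad-negative (left) or Ecad-positive (right) well, by its share of milk and luminal secretory transcripts (horizontal) and of basement membrane transcripts (vertical), in percent, coloured by library. The dotted line is the highest Ecad-positive well at 1.39%, 29 of 69 Ecad-negative wells lie above it, and the circled large well lies at 5.76% and 0.336%.

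A further fit left out the 37 Ecad-negative wells that exceeded every Ecad-positive well in endothelial, basal or leukocyte markers, with no Ecad-positive well removed. Of 951 genes tested, 20 (2.1%) were then called, 13 higher (1.37%) and 7 lower (0.736%) in Ecad-negative cells. Of the 53 calls 38 were tested, all 38 kept their direction and 19 were called. Sparc stood at a log2 fold change of 2.38, Col4a1 at 2.33, Col4a2 at 2.16 and Sparcl1 at 1.35, the 4 basement membrane genes still tested, and all 4 were called. Fam101b (2.49), Timp3 (2.57), Bgn (2.13), Col16a1 (2.93), Ctgf (2.37), Alkbh5 (1.62), Pmepa1 (1.2) and Rn45s (1.16) were called higher, and Ahdc1 was the gene called here and not with all wells (1.03). Scgb2b27 (−3.32), Wfdc18 (−1.13), Fos (−1.33), Zfp36 (−1.77), Jun (−1.59), Fosb (−2.18) and Rpl39 (−0.78) were called lower. Among genes tested and not called here, log2 fold changes were 0.6 for Vim, 0.29 for Igfbp5, 0.9 for Apoe, 1.1 for Flna, 0.41 for Actb, −0.66 for Csn3 and −0.71 for Phlda1. Acta2 was at 1.75 (adjusted p = 0.0508, over all alternatives 1.08e-24 to 0.0892). This fit removes wells by genes that include Acta2 and Mylk, and it has fewer Ecad-negative wells and transcripts. Its cut-offs were the highest Ecad-positive shares, 0.525% (endothelial), 0.538% (basal) and 0.283% (leukocyte). In a well of low depth a few marker transcripts can exceed such a share, and the median Ecad-negative well held 1603 transcripts, against 2064. For leukocyte markers 6 wells did so, though the sums of the groups overlapped. The removed wells are therefore not shown to be other cell types. The large well stayed in, as its endothelial (0.0180%), basal (0.112%) and leukocyte (0.0402%) shares were under those of the highest Ecad-positive wells. With all wells it held 55.7% of the library 2 sum of Ecad-negative cells. Its part in the calls lost here was not tested.

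Immune genes were mostly too low to test. Of 3 tested monocyte and macrophage genes 1, Apoe, was called higher (median 1.14), against 3.28% of all genes tested. The markers of this list, which holds Apoe itself, took (20 of 25 measured) 0.288, 0.154, 0.358 and 0.379% of transcripts in Ecad-negative libraries 1 to 4, against 0.153, 0.112, 0.110 and 0.143% in Ecad-positive cells, and their part in the level of Apoe was not tested. Emr1 and Mrc1 were at 0 in Ecad-negative cells, Aif1 was at 0 in Ecad-positive cells, and Ccr2 was at 0 in both. Of the other tested genes, Lyz1 (4.3, 1.28, 7.16 and 5.84 in Ecad-negative cells and 2.02, 1.12, 1.99 and 2.19 in Ecad-positive cells, may share reads with Lyz2) and Tyrobp (1.61, 0.73, 2.75 and 1.75 in Ecad-negative cells and 2.19, 0.697, 1.33 and 1.1 in Ecad-positive cells) were not called with all wells. Of 2 tested neutrophil genes 0 were called (median −0.06, edgeR, 0 unadjusted, 0 by DESeq2 and limma), with S100a8 at 11.6, 4.56, 9.91 and 11.7 in Ecad-negative cells and 9.58, 8.22, 6.65 and 11 in Ecad-positive cells and S100a9 at 14.5, 3.47, 8.26 and 26.8 in Ecad-negative cells and 10.8, 8.92, 7.98 and 22.7 in Ecad-positive cells. Lymphocyte and leukocyte genes were too low to test. Pericyte genes had 1 tested member, Steap4, which was not called (3.23, 1.73, 1.1 and 1.75 in Ecad-negative cells and 1.01, 3.35, 1.33 and 1.1 in Ecad-positive cells, log2 fold change 0.1, SE 0.48, edgeR adjusted p = 0.946).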

How the data were processed

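The authors deposited estimated counts of molecules per gene and well, in which a number k of observed molecular barcodes out of 256 is turned into 256·ln(256/(256−k)) (from the values, largest distance of k from a whole number 3.13e-13). BWA 0.6.2-r126 and the mm10 build were used per the submitters' processing notes, and how reads were counted is not known here. Ecad-negative and Ecad-positive wells of at least 500 transcripts, spike-ins left out, were summed per library and rounded. The sums held 17189 to 109892 transcripts, which limits what can be detected in low genes, and intervals cover counting error only. The table names 11753 genes. RefSeq coordinates and promoter windows are those of GRCm38.p6, the assembly behind mm10.

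The 8 sums were fitted in edgeR 4.0.16 (R 4.3.3) by its quasi-likelihood test with TMM scaling, a term for library, a filter with a minimum count of 5, and Benjamini-Hochberg adjustment over all genes tested at 0.05. The method was tried on simulated counts that shared a single dispersion over all genes. Such counts do not give the error rate of the calls in these data. Levels are transcripts per 10000 in the sum, and fold changes are Ecad-negative over Ecad-positive. Alternatives were DESeq2 1.42.0, limma 3.58.1 on the mean over wells of log2(transcripts per 10000 + 1), other filters, scalings and wells, and leaving out each library. Same-numbered sums pair because Ecad-negative and Ecad-positive wells shared a library, and their residuals correlated at 0.155, 0.107, 0.0409 and 0.212. Sums of different libraries correlated at −0.222 to 0.124, so some of these exceeded some of the matched pairs.

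The members, the 35 gene lists and the tests were chosen with earlier results of these data known. Genes were named by a rule: up to 12 called genes of smallest p per level band and direction that were also called without the large well and had the same direction in 4 of 4 libraries, up to 6 called only with and up to 12 only without that well, up to 6 called and 2 uncalled members of each list, and Cdh1, Epcam and Vim. Alkbh5, Col9a3, Gnai2, Lamb1, Scgb1b27, Ltf, Ppp1cb, Vwa1, Tpm2, Myh9, Actn4, Marcks, Perp and the low markers counted in wells fall outside it and were named after their values were seen. A called gene is not reported here.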

Additional observations from a re-analysis of the deposited data

Results flagged for a closer look

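Of 82 groups of 4 libraries examined for the genes of the naming rule, 10 (12.2%) held a library whose gap to its nearest neighbour, as a share of the whole range, was above Dixon's 95% critical value. For normally distributed values about 1 in 20 groups would pass. Several flagged groups rest on few transcripts, where that rate need not hold, so no excess can be read from the share flagged. All values are transcripts per 10000. Among Ecad-negative sums, Col16a1 stood at 5.92 in library 1, against 2.33 to 2.75 in the others. Mylk stood at 23.9 in library 4 (others 2.28 to 5.38) and Sparcl1 at 28.6 in library 4 (others 8.61 to 9.91). Phlda1 stood at 18.03 in library 1 (others 11.05 to 11.6), and Rpl39 was low in library 4, at 5.25 (others 23.7 to 27.0). Among Ecad-positive sums, Igfbp5 stood at 76.4 in library 4 (others 36.6 to 40.4), Igfbp4 at 1.99 in library 3 (others 0.697 to 0.841), Hspg2 at 0.997 in library 3 (others 0.279 to 0.366), Col16a1 at 0.558 in library 2 (others 0.332 to 0.366), and Nid1 at 0.139 in library 2, a single transcript, with 0 in the other libraries.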

How the results depend on the processing

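All 53 called genes kept their direction in every alternative that tested them, and 15 of them, Sparc, Col4a1, Col4a2, Nid1, Hspg2, Sparcl1, Mgp, Timp3, Bgn, Igfbp3, Mylk, Myl9, Fam101b, 1500015O10Rik and Scgb2b27, were called in each of those, 6 in all 21 alternatives. The count of called genes was 98 without the large Ecad-negative well, 27 with wells of at least 1500 transcripts, 20 without Ecad-negative wells high in markers of other cell types, 33 and 120 with filters at a minimum count of 10 and 2, 119 without a filter (52 higher, 67 lower), 29 with DESeq2, and 34 with the Ecad-negative, Ecad-positive and blood populations fitted together. Leaving out single libraries gave 28 to 77. Without the replicate block, which pairs Ecad-negative cells and Ecad-positive cells by library, 38 genes were called. The cause of these shifts was not tested, beyond fewer wells or another set of genes tested. With other scaling, 54 genes were called with DESeq2 size factors and 56 with totals alone. limma on means over wells gave 76 and moved the median log2 fold change of all genes to −0.14, so its share of higher calls, 40.8%, is relative to that shift, against 69.8% in edgeR. Over the genes named, 2149 values kept their direction and side of the threshold under the alternatives, 205 were no longer called, 163 were newly called and 134 of uncalled genes changed sign. Depth limits low genes, as 862 of 1128 genes tested averaged under 5 transcripts per 10000.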
